A study of Mus musculus with 4 samples.

Results

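Celsr1, Celsr2 and Celsr3 encode atypical cadherins of the adhesion G protein-coupled receptor class, and Fzd3, Fzd6, Vangl1, Vangl2, Prickle1 and Prickle2 encode the membrane and cytoplasmic proteins that act with them in planar cell polarity. These 9 genes were chosen by symbol, as the Celsr family and its core planar polarity partners, among 19465 genes of a spatial count table of mouse brain. All 9 were rows of the table, and all 9 passed a filter on low levels, a mean of 1 count or more per 1000000 counts (CPM), as did 13773 genes in all. The table came from the Visium CytAssist assay for fixed, paraffin-embedded tissue, in which gene probes hybridised to a section are captured on a grid of barcoded spots. Coronal sections at the level of the striatum had been cut from 4 mice, 2 of them wild-type and 2 heterozygous for Celsr3. The mice received no treatment, and their age and strain were not given in the sources used here. Neither the allele's construction nor the probes' position in each transcript was given, so a Celsr3 count was no check of genotype.

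In planar cell polarity, Celsr proteins of neighbouring cells bind each other across the junction. Frizzled receptors, here Fzd3 and Fzd6, gather with them on one side of a cell, while the Vangl membrane proteins and the Prickle adaptors that bind Vangl gather on the opposite side. The system orients the beating cilia of the cells that line the brain's ventricles, and Celsr3, Celsr2, Fzd3 and Vangl2 are also known for guiding axon tracts in the developing forebrain. Celsr1 is associated with dividing cells of epithelia, and Celsr3 with neurons after they leave the cell cycle.

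Spot names carried 1 of 4 endings, and the spots are treated here as 4 barcode sets, 1 to 4. No label tied a set to a mouse or a genotype, so no wild-type section was compared with a heterozygous one, and every value is given by set. The sets held 2808 to 3445 spots, 90752500 to 174762000 counts in all and a median of 26444.5 to 52481 counts per spot. The 4 sets shared 1613 of 4744 different barcodes. All intervals are at the 95% level and reflect counting error alone. Spots of a section are not replicates, and no p-value is given.

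Each spot was placed in 1 of 15 areas by its mean score over marker genes that excluded the 9 genes, and 11519 of 12601 kept spots (91.4%) received an area. The striatum-marked spots numbered 443 to 778 per set, and each of 10 striatal markers was 7.90 to 36.2 times as high there as in other spots. At least 4 of 5 or 5 of 6 markers were 2-fold higher in cortical layers 6 and 2/3, and all markers were in the remaining areas with at least 30 spots. These markers chose the spots, so their levels describe the areas and support nothing further. Among the 10 genes that led the lateral septum area, Trpc4 was the only one of its 3 markers and Prkcd was a marker of the thalamus list. A spot can hold several cells of different types. An area with fewer cells of a type and an area with less RNA per cell cannot be told apart in such counts. Thalamus-marked spots reached 30 only in sets 1 and 4, and choroid plexus spots only in sets 1 and 3, so those 2 areas are described from 2 sets each.

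A level is the CPM of a gene over the summed spots of an area in a set. The number of probes per gene was unknown, so levels are compared within a gene and not between genes. A gene was called higher or lower in an area where, in every set with at least 30 such spots, its level was at least 1.5-fold above or below that of all other spots and the interval of the ratio left out 1. Of the 135 pairs of a gene and an area, 10 were called higher and 12 lower. Over all tested genes, the share called higher ran from 0.9% to 15.4% by area and the share called lower from 0.581% to 22%, so these counts alone set the 9 genes apart from no others. In 5 areas 0 of the 9 genes were called either way. The shares of all tested genes called higher and lower there were 1.78% and 6.93% in layer 5, 1.12% and 2.36% in layer 6b, 1.58% and 5.14% in the claustrum, 0.9% and 1.99% in the lateral septum, and 1.33% and 3.22% in the basal forebrain.

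**Figure D1:**
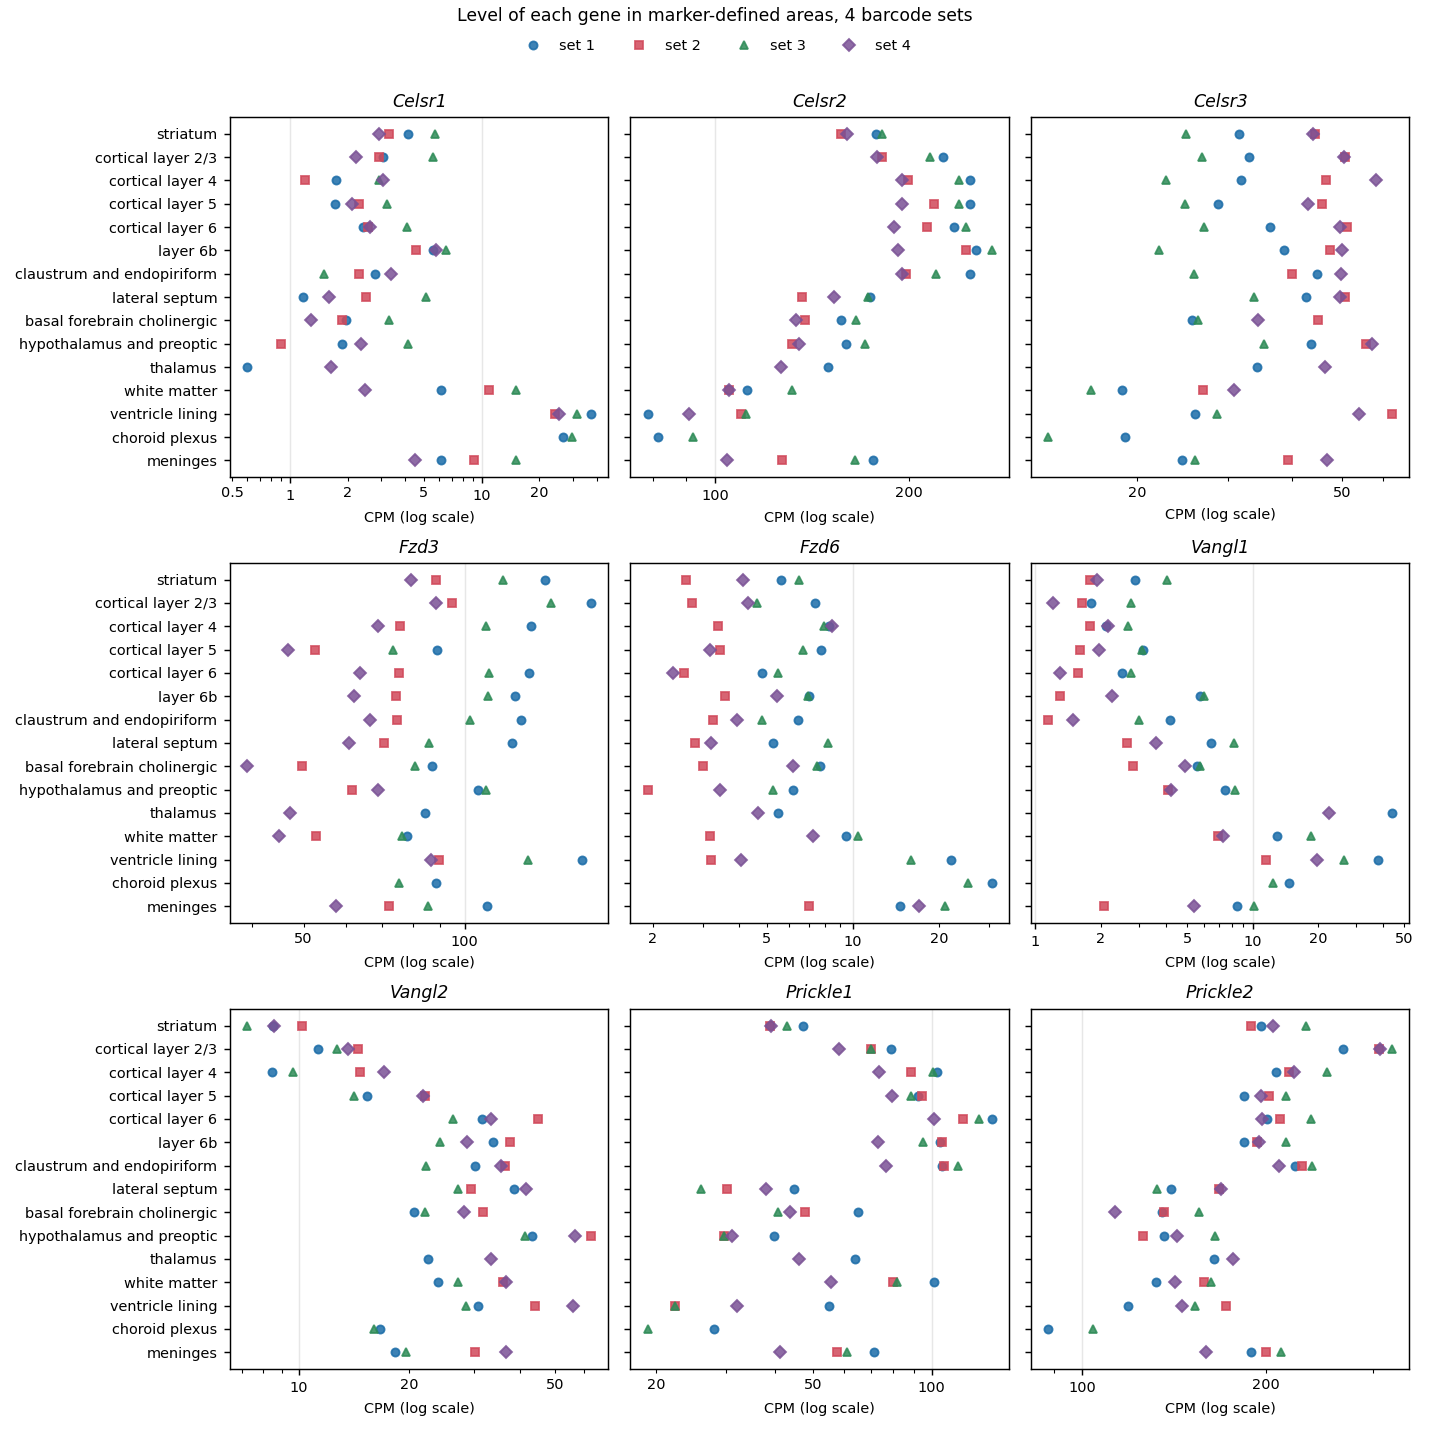
Level of each of the 9 genes (horizontal axis, CPM on a log scale, each panel with its own range) in 15 marker-defined areas (rows), with 1 point per barcode set. Celsr1 and Vangl1 spread most over the areas, with ventricle lining at 24.3 to 37.4 and 11.5 to 38.0 CPM, and Celsr3 stays between 13.5 and 62.6 CPM throughout.

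Among the Celsr genes, Celsr1 was concentrated in the ventricle lining and the choroid plexus, Celsr2 was low in both and in white matter, and Celsr3 differed little between neuronal areas. Celsr1 in the ventricle lining was at 37.4, 24.3, 31.5 and 25.5 CPM in sets 1 to 4, from 131, 38, 65 and 50 counts. The other spots had 4.10, 2.93, 5.76 and 2.58 CPM. All 4 sets were high there, with ratios of 9.12, 8.27, 5.47 and 9.87, against a background of 11.5% of all tested genes called higher in that area. In the choroid plexus Celsr1 stood at 26.7 and 29.7 CPM in sets 1 and 3, which was 6.88 and 5.62 times the other spots, and 15.4% of genes were called higher there. Leiden clusters held no choroid plexus area, so the calls of all genes there had no counterpart with them. The 6 ependymal markers are the list that chose the ventricle lining spots, so their high level there follows from that choice. They summed to 774 and 756 CPM in the choroid plexus spots. The sums were 1771 to 2794 CPM in the ventricle lining and 53.6 to 76.5 CPM in white matter. Their part in the Celsr1 level of the choroid plexus spots was not tested. The ventricle lining also held 2029 to 2544 CPM of astrocyte markers and 366 to 690 CPM of neuroblast markers, against 691 to 858 and 79.6 to 120.1 CPM in the striatum.

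White matter gave a less even picture for Celsr1, with 6.18, 11, 15.1 and 2.47 CPM in sets 1 to 4. The ratio was above 1 beyond its interval in sets 1, 2 and 3 and was 0.792 in set 4, so no call was made. Thalamus was low in Celsr1, at 0.598 and 1.64 CPM in sets 1 and 4 from 8 and 18 counts. It was called lower there, at 0.117 and 0.501 times the other spots, where 11.9% of genes were called lower. Striatum held 4.15, 3.27, 5.74 and 2.92 CPM of Celsr1, from 120, 79, 184 and 32 counts, and the interval of the ratio held 1 in all 4 sets.

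Celsr2, known for forebrain tract formation together with Celsr3, differed from Celsr1 in where it was low. Its ventricle lining level was 78.5, 110, 112 and 91.2 CPM in sets 1 to 4, between 0.422 and 0.635 times the other spots, and 4.22% of genes were called lower in that area. White matter held 112, 105, 132 and 105 CPM, a ratio of 0.577 to 0.648, where 8.18% of genes were called lower. The white matter call was lost with Leiden clusters and with marker scores standardised within each set. Choroid plexus spots had 81.6 and 92.2 CPM in sets 1 and 3, at 0.434 and 0.452 times the other spots, where 22% of genes were called lower. A single gene, the choroid plexus marker Ttr, made up 17.5% and 17.4% of all counts in those spots, which lowers the CPM of every other gene there.

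In the cortex Celsr2 was above the other spots in all 4 sets without reaching 1.5-fold. Layer 6b had 254, 246, 269 and 192 CPM, at 1.41, 1.44, 1.37 and 1.23 times the other spots. Layers 2/3, 4, 5 and 6 and the claustrum likewise had ratios between 1.07 and 1.39, each with an interval above 1 in every set. The striatum had 178, 157, 182 and 160 CPM of Celsr2, with ratios of 0.887 to 1.02.

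Celsr3, the gene for which 2 of the mice were heterozygous, had counts in every area with at least 30 spots in a set. In the striatum it was at 31.5, 44.3, 24.9 and 43.9 CPM in sets 1 to 4, from 911, 1070, 798 and 480 counts. The ratio to the other spots was 0.992, 0.933, 0.947 and 0.921, and its interval left out 1 only in set 2. The striatal level thus lay close to that of the other spots in each set. Hypothalamus and preoptic spots had the most even excess, at 43.6, 55.6, 35.3 and 57.2 CPM and 1.21 to 1.42 times the other spots, with the interval above 1 in 4 of 4 sets but below the 1.5-fold limit. Among the 4 sets, the area with the highest level was the claustrum in set 1, the ventricle lining in set 2, the hypothalamus in set 3 and cortical layer 4 in set 4. Of 14 pairs of areas next to each other in the order of Celsr3 levels, 0 differed beyond their intervals in every set.

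White matter was the lowest of the 13 areas present in all sets for Celsr3 in every set. The levels were 18.7, 26.8, 16.3 and 30.8 CPM, at 0.558, 0.566, 0.619 and 0.636 times the other spots, against the 8.18% of genes called lower there. The oligodendrocyte markers are the list that chose the white matter spots. They summed to 27488 to 40957 CPM there and to 4337 to 7398 CPM in the striatum. Choroid plexus spots held 19.0 and 13.5 CPM of Celsr3 in sets 1 and 3, at 0.590 and 0.509 times the other spots, among the 22% of genes called lower. Of 10 other ways of grouping or scaling the spots, the white matter call held under 7 and the choroid plexus call under 8, RLE scaling not among them.

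Upstream sequence is shown for the study's own gene, Celsr3, and for Vangl2, the only one of the 9 genes called lower in the striatum. Over all tested genes 14.9% were called lower there. RefSeq windows matched 5 of the 9 genes, Celsr2, Celsr3, Vangl2, Prickle1 and Prickle2. Both sequences run 5′ to 3′ on the gene's strand and end at the base before the gene's RefSeq span on GRCm38.p6, and capitals mark CAGCACC, a part of the RE1 element that the neuronal repressor REST binds. The Celsr3 stretch is chr9:108825795-108826022, plus strand, and the Vangl2 stretch is chr1:172027319-172027545, minus strand.
Celsr3: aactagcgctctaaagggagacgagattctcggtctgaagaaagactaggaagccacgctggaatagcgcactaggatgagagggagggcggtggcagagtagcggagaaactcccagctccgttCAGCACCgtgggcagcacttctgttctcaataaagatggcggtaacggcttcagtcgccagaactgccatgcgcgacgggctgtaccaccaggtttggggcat
Vangl2: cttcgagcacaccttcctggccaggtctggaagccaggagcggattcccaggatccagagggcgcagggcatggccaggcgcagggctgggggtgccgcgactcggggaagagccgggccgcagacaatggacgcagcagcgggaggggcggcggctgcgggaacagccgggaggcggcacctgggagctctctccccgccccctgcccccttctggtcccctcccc

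The Celsr3 stretch is 228 bases long with 56.6% G and C and 15 CpG sites, and the Vangl2 stretch is 227 bases long with 73.1% and 17. Over all 32851 windows of 250 bases, the median was 52.4% and 6 CpG sites. CAGCACC or its reverse complement occurred in the Celsr3 window and in both windows of Prickle1. It occurred in 5.73% of all windows, and in no window of Celsr2, Vangl2 or Prickle2. The other 3 motifs were searched on both strands. GTTGCC, part of the X-box of cilia genes, occurred in 1 Prickle1 window and in 10.4% of all windows. CTTTGAT, a TCF/LEF site, occurred in 1 Prickle2 window and in 3.21%, and GTAAACA, a forkhead site, in 0 of the 9 windows of these genes and in 3.17% of all. A match describes the letters of a window and is no evidence of binding.

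The Frizzled genes encode the receptors that sit beside Celsr proteins. Fzd3, the member known for axon guidance with Celsr3, was called in 0 areas and Fzd6 in 2. Fzd3 was highest in cortical layer 2/3 in every set, at 172, 94.5, 145 and 88.4 CPM. The ratios there were 1.55, 1.34, 1.46 and 1.47, each with an interval above 1, but only set 1 passed 1.5-fold and no call was made. Striatum, with 141, 88.3, 118 and 79.5 CPM, and ventricle lining, with 165, 89.4, 131 and 86.6 CPM, were likewise above the other spots in 4 of 4 sets, at 1.19 to 1.30 and 1.21 to 1.45 times. Cortical layer 5 lay between those layers at only 89.0, 52.5, 73.6 and 46.8 CPM, or 0.690 to 0.761 times the other spots. Fzd3 therefore dipped in layer 5 between higher values in layers 4 and 6 in each of the 4 sets. White matter and basal forebrain cholinergic spots were also below the other spots in every set, at 0.650 to 0.734 and 0.609 to 0.777 times.

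Fzd6, a frizzled known for hair and skin polarity and for brain vessels, was called higher in the choroid plexus and in the meninges. Choroid plexus spots held 30.6 and 25.3 CPM in sets 1 and 3, at 4.21 and 3.68 times the other spots, beside the 15.4% of genes called higher. Meningeal spots held 14.6, 7.04, 20.9 and 17.1 CPM in sets 1 to 4, from 55, 17, 62 and 19 counts. Their ratios were 1.82, 2.53, 2.90 and 3.62, and 5.73% of genes were called higher there. Leiden clusters held no meninges area, so this call had no counterpart with them and was not tested by them. The 4 endothelial markers in the table summed to 372 to 678 CPM in the meningeal spots and to 98.7 to 262.8 CPM elsewhere. The 4 mural markers summed to 288 to 643 CPM in the meninges. Astrocyte and microglial markers were high in the meningeal spots too, at 2077 to 3034 and 388 to 518 CPM. In the striatum they summed to 691 to 858 and 260 to 298 CPM. Those spots also held RNA of excitatory neurons, with 649 to 1378 CPM of the 2 excitatory neuron markers. Cortical layer 2/3 held 2065 to 2511 CPM of these 2 markers, and the striatum 38.5 to 66 CPM. The part of these markers' cells in the Fzd6 level was not tested. In the meninges 0 of the 9 genes were called lower, beside 0.581% of all genes.

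The ventricle lining split the sets for Fzd6. The level was 22.0 and 16.0 CPM in sets 1 and 3 and 3.19 and 4.07 CPM in sets 2 and 4. These values rested on 77, 5, 33 and 8 counts in sets 1 to 4. Fzd6 over all spots was also higher in sets 1 and 3, at 8.16 and 7.46 CPM, than in sets 2 and 4, at 2.87 and 4.87 CPM. The ratio of the ventricle lining to the other spots was 0.834 to 2.79, with no call. Ttr made up 1.5% and 1.14% of the counts of the ventricle lining spots in sets 1 and 3, and 0.0189% and 0.0518% in sets 2 and 4. The part of choroid plexus RNA in the Fzd6 level there was not tested. Striatum held 5.6, 2.61, 6.49 and 4.11 CPM of Fzd6, from 162, 63, 208 and 45 counts.

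The Vangl genes encode the membrane proteins of the opposite side. The paralogs were highest in different areas, but both were above the other spots in the ventricle lining in every set. Both were also below the other spots in striatum and layers 2/3 and 4 in every set, and their r over areas was 0.45. Vangl1 was highest in thalamus, at 43.9 and 22.4 CPM in sets 1 and 4 from 588 and 246 counts. Both sets gave the same ratio to the other spots, 6.84 and 6.85, and 5.76% of genes were called higher in that area. Tcf7l2, a marker of the thalamus list, was also among the 5 genes most like Vangl1 over areas. In the ventricle lining Vangl1 was at 38.0, 11.5, 26.2 and 19.9 CPM, from 133, 18, 54 and 39 counts. The ratios were 4.36, 5.42, 4.90 and 3.77, a call beside the 11.5% of genes called higher. Choroid plexus spots held 14.7 and 12.4 CPM, 1.62 and 2.30 times the other spots. White matter had 13, 6.93, 18.5 and 7.27 CPM, at 1.48, 3.30, 3.64 and 1.33 times, with the interval above 1 in 3 of 4 sets and no call. Vangl1 was low in striatum and cortex, where levels lay between 1.20 and 4.02 CPM in striatum and cortical layers 2/3 to 6.

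Vangl2, the paralog whose loss disrupts neural tube closure, was called higher in the hypothalamus and lower in the striatum and upper cortex. Hypothalamic and preoptic spots had 43.3, 62.7, 41.3 and 56.8 CPM in sets 1 to 4, and 6.68% of genes were called higher there. The ratios of 2.20, 2.68, 2.46 and 2.23 lay close together. In the striatum Vangl2 was at 8.51, 10.2, 7.23 and 8.59 CPM from 246, 247, 232 and 94 counts. This was 0.351, 0.327, 0.333 and 0.271 times the other spots, in an area where 14.9% of genes were called lower. Hypothalamus and striatum were the highest and lowest of the 15 areas by median Vangl2 level, so the lack of overlap between their values adds little. The share of all genes without such overlap was not counted.

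In the cortex Vangl2 was lower in layers 2/3 and 4, at 8.48 to 17.1 CPM, than in layer 6, at 26.4 to 44.9 CPM. Layer 5 had 14.2 to 22.1 CPM. Layer 4 was below layer 2/3 in sets 1 and 3 and above it in sets 2 and 4. Layer 2/3 had 11.3, 14.5, 12.7 and 13.6 CPM, at 0.504, 0.502, 0.653 and 0.442 times the other spots, where 8.42% of genes were called lower. Layer 4 had 8.48, 14.7, 9.64 and 17.1 CPM, at 0.381 to 0.575 times, where 7.17% were and 3.01% were called higher. The layer 2/3 call held under 3 of 10 other ways of grouping or scaling the spots, TMM and RLE scaling not among them, and the layer 4 call under 9. Layer 6 was at 1.51, 1.77, 1.43 and 1.16 times the other spots with no call. Ventricle lining had 30.8, 44.1, 28.6 and 56.0 CPM of Vangl2, at 1.44 to 1.98 times and with the interval above 1 in 4 of 4 sets, which missed 1.5-fold in set 1 alone.

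Vangl1 made up 66.1% and 40.1% of the summed Vangl1 and Vangl2 counts in thalamus in sets 1 and 4, with exact Clopper-Pearson intervals of 62.9% to 69.2% and 36.2% to 44.1%. In the striatum of the 4 sets it made up 25.2%, 14.8%, 35.7% and 18.3%. These shares depend on the probes of each gene and show only that the balance moved between areas and sets.

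The Prickle genes encode adaptors that bind Vangl, and both were highest in cortex but in different layers. Prickle1 in layer 6 was at 142, 120, 132 and 101 CPM from 1532, 845, 1392 and 389 counts. The ratios of 1.99, 1.94, 2.10 and 1.91 were a call beside 2.48% of genes called higher, and layer 6 stood above the claustrum, next in order, beyond their intervals in 4 of 4 sets. Claustrum, layer 6b, layer 5 and layer 4 followed with ratios of 1.24 to 1.80. Hypothalamus had 39.8, 29.7, 29.7 and 31.1 CPM, at 0.421 to 0.533 times the other spots, where 7.4% of genes were called lower. Striatum had 47.2, 39.0, 43.0 and 39.1 CPM, at 0.579, 0.532, 0.590 and 0.681 times, with an interval below 1 in every set and no call because set 4 missed 1.5-fold. Choroid plexus spots had 27.9 and 19.0 CPM, at 0.359 and 0.277 times.

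Prickle2 was highest in layer 2/3 in every set, at 268, 308, 323 and 309 CPM from 2979 to 5265 counts. The ratios were 1.58, 1.64, 1.56 and 1.74, where 3.19% of genes were called higher, and layer 2/3 stood above the claustrum beyond the intervals in 4 of 4 sets. The call was lost with Leiden clusters. The other cortical layers were near the other spots, with ratios of 0.936 to 1.19 in layers 4, 5, 6 and 6b. Striatum had 196, 189, 233 and 205 CPM, at 1.14, 0.895, 1.10 and 1.08 times. Choroid plexus spots, with 87.9 and 104 CPM, were at 0.490 and 0.474 times, a call among the 22% of genes called lower.

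**Figure D2:**
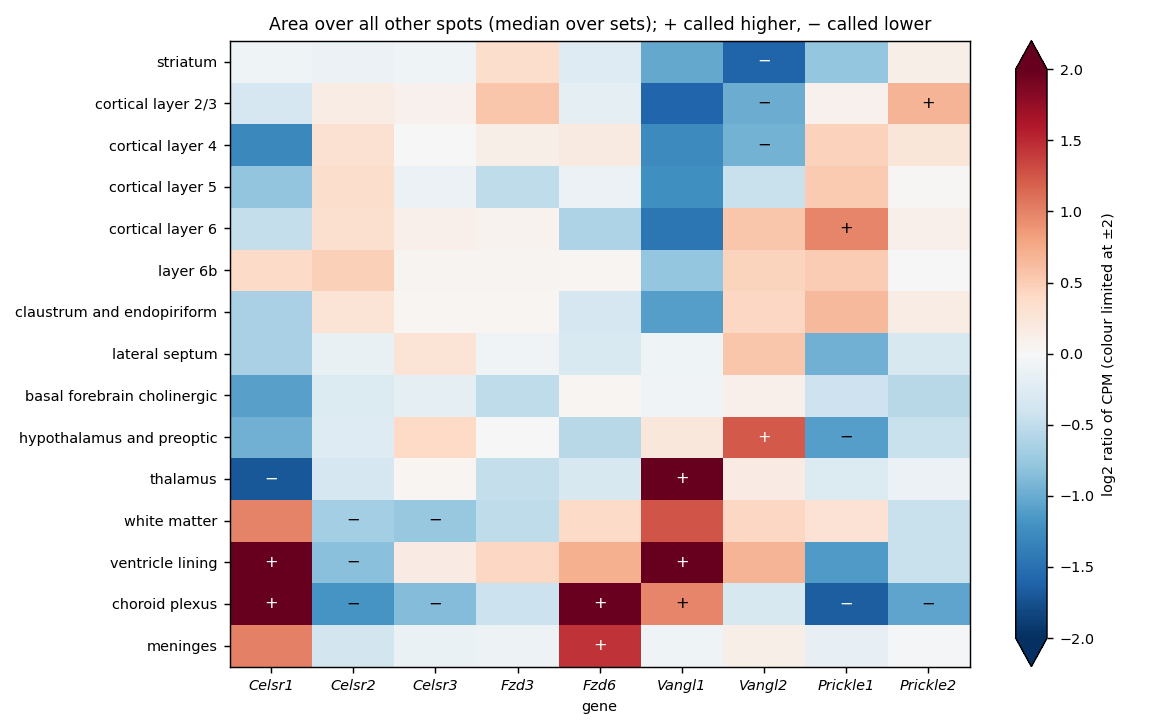
Log2 ratio of the level in an area to that of all other spots, median over the sets with at least 30 spots of the area (colour, limited at 2 either way), for 9 genes (columns) and 15 areas (rows). Plus and minus signs mark the 10 pairs called higher and the 12 called lower. In the striatum only Vangl2 has a call, lower, beside 14.9% of all tested genes called lower there.

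The spread over the 13 areas present in all sets separated the genes. The highest area was 19.7 to 31.9 times the lowest for Celsr1, 9.82 to 21.1 times for Vangl1, 5.11 to 6.61 for Vangl2, 3.68 to 7.28 for Fzd6 and 3.26 to 5.90 for Prickle1. It was 1.89 to 2.38 times for Celsr3, 1.90 to 2.25 for Fzd3, 2.14 to 3.24 for Celsr2 and 2.25 to 2.72 for Prickle2. The lowest values of Celsr1 and Vangl1 rested on 4 to 31 counts, so their folds are imprecise. The Fzd6 folds are imprecise as well. In set 2 the highest and lowest areas rested on 17 and 17 counts, and in set 4 on 19 and 9.

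Other planar polarity genes were read from a list of 37, of which 36 were in the table and 35 passed the filter. In the ventricle lining 8 of 35 were called higher and 0 lower, beside 11.5% and 4.22% of all genes. They included Dchs1, an atypical cadherin of the Fat-Dachsous system, at 37.7 to 53.4 CPM and 4.11 to 5.36 times the other spots. Intu and Fuz, cytoplasmic effectors needed for cilium assembly, were at 2.44 to 3.15 and 2.80 to 3.02 times, and Wdpcp, another such effector, at 2.00 to 2.81 times. Ankrd6, Wnt5a, Fzd1 and Gpc4 made up the rest. In the striatum 0 of 35 were called higher and 8 lower, against backgrounds of 5.87% and 14.9%. The striatal calls were Dvl3, Prickle3, Wnt5a, Fzd8, Fzd9, Fat4, Intu and Gpc4. Wnt5a, a ligand of the pathway, was there at 0.259 to 0.321 times the other spots, and at 2.61 to 5.03 times in the meninges.

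In white matter 5 of 35 were called higher and 0 lower, beside 8.55% and 8.18% of all genes. Daam1 and Daam2, formins downstream of Dishevelled, were at 1.97 to 2.64 and 2.88 to 3.23 times the other spots, with Scrib, Rhoa and Prickle4 between 1.51 and 1.94 times. Thalamus had 4 called higher, among them Fzd10 at 5.69 and 6.02 times in sets 1 and 4 and Fzd1 at 2.82 and 3.11 times, and 2 lower, beside 5.76% and 11.9% of all genes. Choroid plexus had 11 higher and 3 lower, beside 15.4% and 22% of all genes, with Fzd4, a receptor of retinal and brain vessels, at 8.18 and 8.81 times. Meninges had 5 higher, Ror2, Wnt5a, Fzd2, Fat4 and Gpc4, and 0 lower, beside 5.73% and 0.581%. In cortical layer 6, where Prickle1 was called higher, 0 of the 35 were called higher and 7 lower, beside 8.21% of all genes called lower.

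Cell-type markers were then used within areas, by comparing the 25% of spots with the highest marker score with the 25% with the lowest, each area and set apart. A call needed a level at least 25% higher or lower, as a ratio, with an interval that left out 1 in every set. Over all areas, Celsr1 was higher in astrocyte-rich spots, at 2.03, 2.55, 1.81 and 1.71 times in sets 1 to 4, where 8.28% of genes were called higher. Fzd6 was higher in spots rich in endothelial markers, at 1.88, 1.67, 1.85 and 2.43 times, where 2.79% of genes were. The mural markers gave Fzd6 ratios of 1.39 to 2.13, above 1 beyond the interval in 3 of 4 sets. No further member was called in any of the 11 marker lists over all areas, and 0 of 9 were called within the striatum or within the ventricle lining. Within the striatum, the share of all genes called higher was 0.0653% for inhibitory neuron, 0.508% for interneuron, 0.276% for excitatory neuron, 1.05% for astrocyte, 3.7% for oligodendrocyte, 1.52% for oligodendrocyte precursor and 0.232% for microglial markers. It was 0.109% to 0.341% for the other 4 lists. The share called lower was 0.312% for inhibitory neuron, 0.0145% for astrocyte, 0.327% for oligodendrocyte and 0.00726% for oligodendrocyte precursor and ependymal markers, and 0 for the other 6 lists. Within the ventricle lining the shares over the 11 lists were 0.0653% to 3.72% higher and 0 to 2.13% lower, and over all areas 0.392% to 8.28% higher and 0 to 1.26% lower. Few genes of any kind were thus called within areas, and 0 of 9 says little about these genes.

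Within the striatum, Celsr3 ratios over the 11 lists and 4 sets lay between 0.81 and 1.27. The endothelial list gave Fzd6 ratios of 1.98, 2.16, 1.44 and 1.37 in the striatum, with the interval above 1 in sets 1 and 2 only. The ependymal list is also the one that chose the ventricle lining spots. Among those, the spots richest in ependymal markers had 3.58, 1.23, 3.70 and 5.64 times the Celsr1 of the poorest. For Vangl1 the ratios were 4.25, 3.43, 3.42 and 2.70. The interval left out 1 in 3 of 4 sets for each gene, set 2 being the exception for both, with 9 and 15 counts of Celsr1 and 5 and 3 of Vangl1. Each side of the comparison held 14 to 23 spots, and 3.72% of all genes were called higher with that list.

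**Figure D3:**
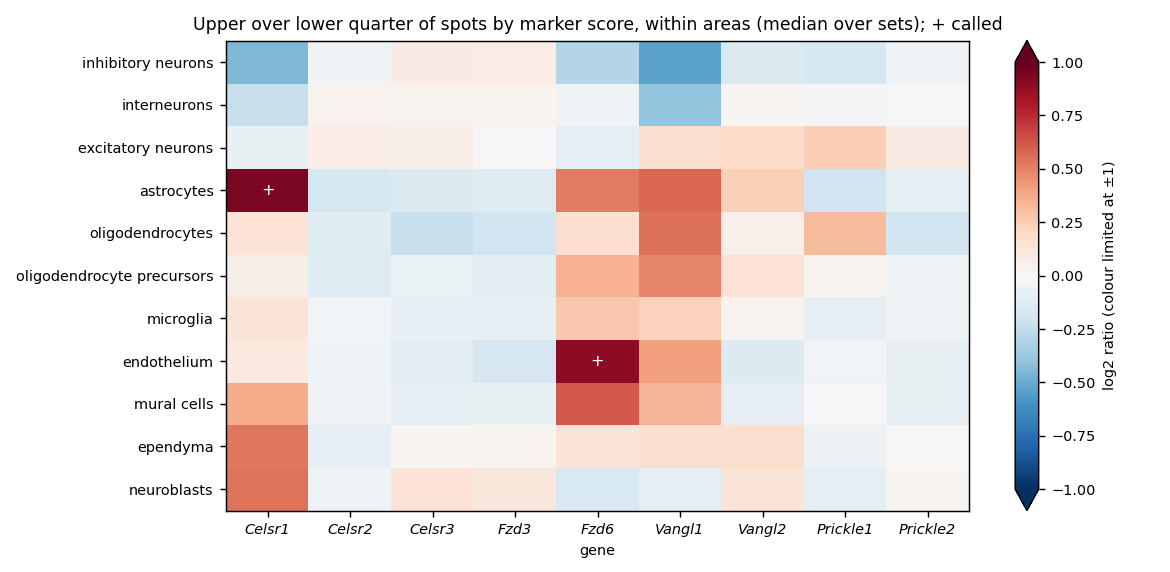
Log2 ratio of each gene (columns) between the 25% of spots with the highest and the 25% with the lowest score of a cell-type marker list (rows), compared within areas and combined over areas, median over the 4 sets (colour, limited at 1 either way). Plus signs mark the calls, Celsr1 with astrocyte markers at 1.71 to 2.55 times and Fzd6 with endothelial markers at 1.67 to 2.43 times.

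The 4 sets differed in which areas they held, so levels between sets were compared as the unweighted mean CPM over the 13 areas present in all of them. Celsr3 then was at 32.7, 46.6, 26.2 and 47.5 CPM in sets 1 to 4. The highest set was 1.81 times the lowest, and 1.81 times over all spots as well. Celsr3 was lowest in set 3 in 10 of 13 areas and highest in set 2 in 7 and in set 4 in 6. Between sets 2 and 3 its level was 1.51 to 2.19 times higher in set 2 in all 13 areas, with the interval above 1 in each. These differences separate the barcode sets and cannot be assigned to genotype.

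Fzd3 differed between sets as much as Celsr3 and in another order, at 122, 71.7, 103 and 64.2 CPM. It was highest in set 1 in 12 of 13 areas and lowest in set 4 in 12. Over all spots, Vangl1 was 4.13 times as high in set 1 as in set 2. Over the 13 areas, which leave out thalamus, its highest set was 2.48 times the lowest, at 7.78, 3.14, 7.79 and 4.43 CPM. Fzd6 was at 8.65, 3.28, 8.55 and 5.61 CPM, and Vangl2 at 24.2, 31.9, 21.7 and 31.9 CPM. Celsr1 had 5.86, 5.28, 8 and 4.59 CPM. Celsr2, with 156 to 195 CPM, Prickle1, with 57.1 to 81.0 CPM, and Prickle2, with 178 to 207 CPM, spread least.

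**Figure D4:**
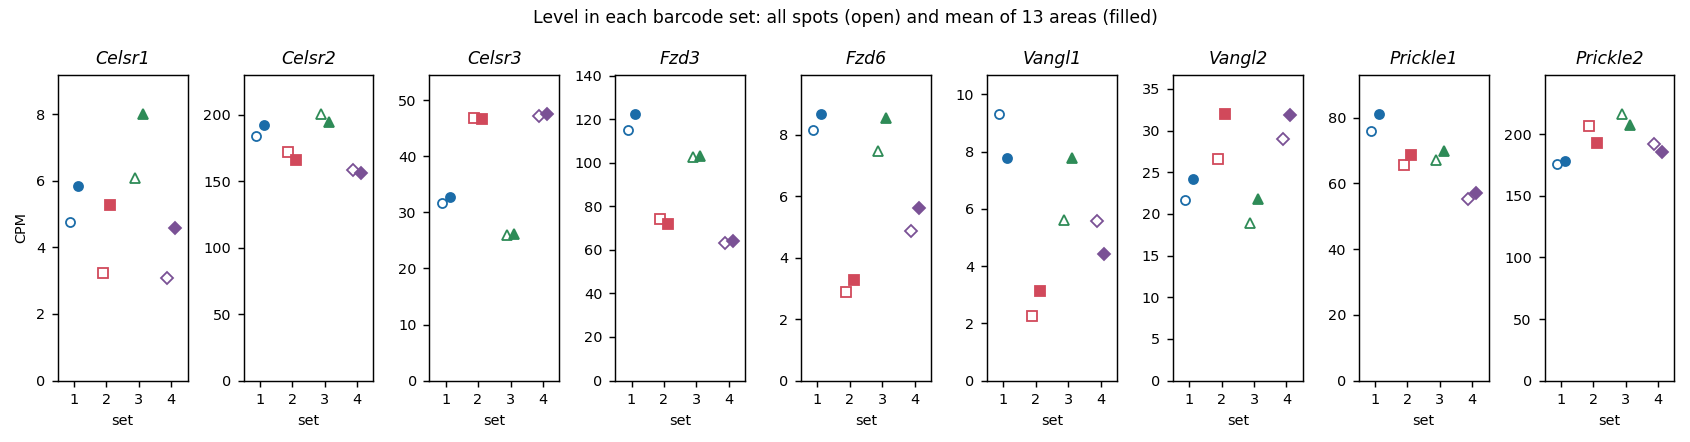
Level of each gene (vertical axis, CPM from 0) in the 4 barcode sets (horizontal axis), over all spots (open symbols) and as the mean over 13 areas (filled symbols). Celsr3 keeps its 1.81-fold span either way, while the span of Vangl1 goes from 4.13-fold to 2.48-fold.

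The number of the 9 genes at least 1.5-fold apart was counted for each pair of sets, beside the share of all genes. Sets 1 and 3 differed in 0 of 9, with 5.64% of 13976 genes apart, and sets 2 and 4 in 1 of 9, Fzd6, with 4.65%. Sets 1 and 2 differed in 3, Fzd3, Fzd6 and Vangl1, with 28% of genes apart, and sets 1 and 4 in the same 3, with 31%. Sets 2 and 3 differed in 4, Celsr1, Celsr3, Fzd6 and Vangl1, with 23%. Sets 3 and 4 differed in 5, those 4 and Fzd3, with 27.1%.

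The genes most like each member were taken from 10138 genes by Pearson's r of log2(CPM + 1) over 56 area-by-set sums, centred within each set. Genes with a mean of 10 CPM or more were compared. These sums share libraries and areas, and r describes them with no test. Celsr3 was most like Vezt (r = 0.86), a junction protein, Maco1 (0.84) and Astn1 (0.83), a neuronal migration protein. Celsr1 was most like Clic1 (0.90), Naaa (0.89) and Psph (0.89), Celsr2 like Tuba4a (0.94), and Fzd3 like the protocadherin Pcdhga12 (0.89). Vangl1 was most like Glo1 (0.90) and Tcf7l2 (0.89), Vangl2 like Fxyd6 (0.92), Prickle1 like the septins Sept8 (0.93) and Sept7 (0.92), Prickle2 like Strn4 (0.94), and Fzd6 like Cpt1a, Pcolce and Tcn2 (0.87 each). Between members, r was highest for Celsr2 with Prickle2 (0.75) and Prickle1 (0.70) and lowest for Celsr2 with Vangl1 (-0.80).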

How the data were processed

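The authors deposited 1 table of raw counts, whole numbers per gene and spot, for sections of 4 mice (2 wild-type, 2 Celsr3 heterozygous). Space Ranger and Seurat are named in the submitters' processing notes, without versions. The genome build, probe set, spot filter and any alignment settings are not given in the sources used here. The 9 genes, the marker lists and the pathway list were chosen with earlier results of these data known, and the minimum marker score was chosen after the data were seen.

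From the deposited counts, 12601 of 12602 spots with at least 500 counts were kept. Each spot was scored as log counts per 10000, standardised per marker over all spots, and took the area with the highest mean score if it reached 0.75. In 1290 assigned spots the 2 best scores lay within 0.25. Of 85 area markers listed, 84 were in the table. Counts were summed per set and area, and ratios of CPM have exact conditional binomial intervals (scipy 1.17.1, numpy 2.4.6, pandas 2.3.3, Python 3.11.15). Within-area ratios by cell-type score were combined over areas by the Mantel-Haenszel method. The planned genotype test with edgeR needs the genotype of each set and was not run. Alternatives used Leiden clusters (scanpy 1.11.5, leidenalg 0.10.2) and TMM and RLE factors (edgeR 4.0.16, R 4.3.3).

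Calls were tested on simulated counts drawn from the whole profile of each set, with counting error alone. Of 200 genes given a 2-fold difference among 13773, 94.5% were recovered in the striatum and 69% in the ventricle lining. With such draws 0 unchanged genes were called. Spots were also redrawn from the mean profile of their own area and set, and 98.1% of 11519 returned to that area. That share reflects counting error and cannot show whether an area was assigned rightly. The rule for named genes was the 9 members throughout, pathway genes where called, and the 5 genes most like each member, of which 1 to 3 are given.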

Additional observations from a re-analysis of the deposited data

How the results depend on the processing

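Of the 22 called pairs of a gene and an area, 9 were called under all 10 other ways of grouping, filtering, thinning or scaling the spots. These were Vangl2 in striatum and hypothalamus, Prickle1 in layer 6 and hypothalamus, Celsr1 and Vangl1 in thalamus, and Celsr1, Celsr2 and Vangl1 in the ventricle lining. Leiden clusters lost 11 of the 22. Among them were the 7 of the choroid plexus and Fzd6 in the meninges, areas that the clusters did not hold. The clusters gave 7 higher and 14 lower, of which 5 and 6 were among those reported. Vangl2 in layer 2/3 held under 3 of the 10, Celsr3 in white matter under 7 and Celsr2 in white matter under 8. A limit of 25% in place of 1.5-fold gave 15 pairs higher and 23 lower, and a fold of at least 2 gave 6 higher and 4 lower. The choice of fold sets these counts. Leaving out each set gave 10 to 11 pairs higher and 12 to 18 lower. Since a call needs every set, this can only add calls: without set 2, Vangl1 was lower in the claustrum and in layers 2/3, 4, 5 and 6 and Celsr1 in the basal forebrain. Without set 4, Prickle1 was lower in striatum and lateral septum, Celsr1 in layer 4 and hypothalamus, and Fzd6 in thalamus, and without set 1, Vangl2 was higher and Prickle1 lower in the ventricle lining. In thalamus and choroid plexus such values rest on 1 set. TMM scaling moved the log2 ratios of all genes by 0.13 to 0.21 in striatum and by -0.39 to -0.24 in the ventricle lining. Of the ratios by gene, area and setting, 1958 stayed within the spread of the sets, 184 moved further and 0 called ones changed direction.

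No paired analysis was possible because the labels match no barcode set with a replicate number. Depth limits the low genes: in the ventricle lining of set 2, Vangl1 and Fzd6 rest on 18 and 5 counts.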
